A study of Homo sapiens with 5 samples.

Results

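SKP2, CCNF, CDC34 and WWP1 are 4 genes of the ubiquitin system that were measured after cisplatin with or without electroporation in SK-MEL28, a line of human melanoma cells in long use. The first 3 belong to SCF ligases and WWP1 is a HECT ligase, and together they make up 4 of the 2078 genes named on the array. Each was read by 1 probe with 4 spots on every array. The members were chosen from their measured log2 ratios on these same arrays, so their ratios are given as a description and carry no test. On the second array of cisplatin with electroporation the ratio to untreated cells was -1.59 for WWP1 and -1.08 for SKP2, while on the first it was -0.082 and -0.19. CCNF read above 0 on all 5 arrays, and CDC34 lay on both sides of 0 in both treatments, though below 0 on every array when each array was centred on its median without loess. Under that centring most probes above background had means below 0 as well.

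RNA was compared on 5 two-colour spotted oligonucleotide arrays that carry genes of apoptosis and cancer. On 2 arrays the Cy5 channel held RNA of cells electroporated in suspension in the presence of cisplatin, with 8 pulses of 1300 V/cm, each 100 µs long, at 1 Hz, and these are called the electroporation arrays below. On 3 arrays it held RNA of cells given cisplatin alone, a platinum drug that crosslinks DNA, and the Cy3 channel of all 5 arrays held RNA of untreated cells of the same line. None of the 5 arrays held cells electroporated without the drug, and the sources used here give neither the cisplatin dose nor the sampling time of the RNA. Treated RNA was in Cy5 throughout, so a response shared by all treated cells and a preference of a probe for that dye cannot be told apart.

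Proteins are marked for destruction by the proteasome when a chain of ubiquitin is attached to them by an activating enzyme, a conjugating enzyme and a ligase acting in turn. In an SCF ligase the cullin CUL1 carries the adaptor SKP1 and a RING protein, SKP1 holds an F-box protein that picks the substrate, and a conjugating enzyme such as CDC34 is brought in by the RING protein. HECT ligases, in contrast, take the ubiquitin onto their own cysteine before they pass it on. SKP2 is the F-box protein that marks the cell cycle inhibitor CDKN1B for destruction at the start of DNA replication, and it is often abundant in melanoma. CCNF encodes cyclin F, an F-box protein with a cyclin fold that limits the ribonucleotide reductase subunit RRM2 and is known to be degraded after DNA damage. CDC34 encodes the conjugating enzyme that builds chains on SCF substrates, and WWP1 encodes a HECT ligase of the NEDD4 family whose WW domains bind proline-rich motifs.

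Unless another scale is named, a ratio below is the log2 of the treated over the untreated signal, after background correction and loess normalization within the array. The signal came from bulk RNA, in which fewer cells of a type and less RNA per cell cannot be told apart. The identity of the line was checked with 6 melanocyte lineage genes, MITF, TYR, TYRP1, MLANA, SOX10 and S100B, and 6 of 6 were above background on every array. Markers of other cell types were also above background, among them 4 of 5 of epithelium, 2 of 2 of fibroblasts, 3 of 5 of endothelium and 2 of 3 of leukocytes, and a signal over background on these arrays does not by itself show that a gene is expressed. Nothing in the labels says that the arrays of a treatment came from separate cultures, so the spread between them may be technical.

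The second electroporation array differed from the other 4 in its low ratios, its spread and its dark spots. It held 6 probes with a ratio below -1, against 2 on the first electroporation array and 0 on each cisplatin array. The SD of the ratio over the 1461 probes that were above background in at least 1 channel on every array was 0.233 on it, 0.182 on the first electroporation array and between 0.163 and 0.193 on the cisplatin arrays. It also had 552 dark spots, against 63 on the first electroporation array and 175 to 239 on the cisplatin arrays. A dark spot here is one at background in both channels while at least 50% of the spots of its probe were bright. On the second electroporation array 344 of them were the last listed spot of their probe, against 12 on the first. Over the 1461 probes, the second electroporation array correlated with the other arrays at r = 0.184 to 0.334. The other arrays correlated with each other at 0.210 to 0.611, highest between the first electroporation and the first cisplatin array. The results for SKP2 and WWP1 rest on the second electroporation array. All 4 spots of both were above background in both channels there, though WWP1 was dim in Cy5, with a median of 74 over a background of 13.

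Over all 3048 probes, limma called 0 at an adjusted p under 0.05 for cisplatin with electroporation against untreated cells (0%), 0 for cisplatin against untreated cells (0%) and 0 for the difference between the treatments (0%). The smallest adjusted p was 0.0932, 0.106 and 0.994 in these comparisons. An unadjusted p under 0.05 was reached by 304, 337 and 107 probes. None of the 4 genes was therefore called, and the account that follows is of their values on each array, the spread between spots and the spread between arrays.

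SKP2, the F-box protein of CDKN1B turnover, read -0.19 on the first and -1.08 on the second electroporation array, against -0.18, -0.092 and 0.016 on the cisplatin arrays. The second electroporation array was far below the other 4, which spanned less than the SD of 0.22 between the 4 spots of the first electroporation array. On the second array the 4 spots ran from -1.47 to -0.92, so every spot was below every spot of the other arrays. The mean was -0.64 ± 0.63 for cisplatin with electroporation (SD, n = 2) and -0.084 ± 0.097 for cisplatin alone (SD, n = 3). The difference between the means was -0.55 with an SE of 0.26 from limma, and it was -0.10 when only the first electroporation array was set against the cisplatin arrays.

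The raw signal of SKP2 shows which channel carried this. On the second electroporation array the median over spots was 274.5 intensity units in Cy5, the treated channel, and 957 in Cy3, the untreated channel. On the first electroporation array it was 524 in Cy5 and 937 in Cy3. The untreated signal was thus nearly alike on the 2 arrays, and the treated signal was lower on the second. The spots of the second array lay between 226 and 308 in Cy5 and between 714 and 1152 in Cy3, with no overlap between the channels. On the cisplatin arrays the Cy5 medians of SKP2 were 1117, 1447 and 399.5 and the Cy3 medians 1756, 1601 and 419, so its signal differed between arrays in both channels together.

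SKP2 was the 1 gene of the 4 whose electroporation arrays both lay below all 3 cisplatin arrays. Of all probes 10.7% had this order, and for SKP2 the first electroporation array lay below the lowest cisplatin array by less than the spread between its spots. The order was lost with median centring, where the first electroporation array read -0.59 and the first cisplatin array -0.62, and with the mean foreground of a spot, where they read -0.16 and -0.18. On the second electroporation array its ratio was the sixth from the bottom of 3048 probes, with IGFALS, MXD1, WWP1, PLK1 and RET as the others in that group. On the first it ranked 237 from the bottom, and on the cisplatin arrays 268, 445 and 1813. SKP2 stood low among the probes on the second electroporation array and near the middle of the ranking on the third cisplatin array.

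**Figure D1:**
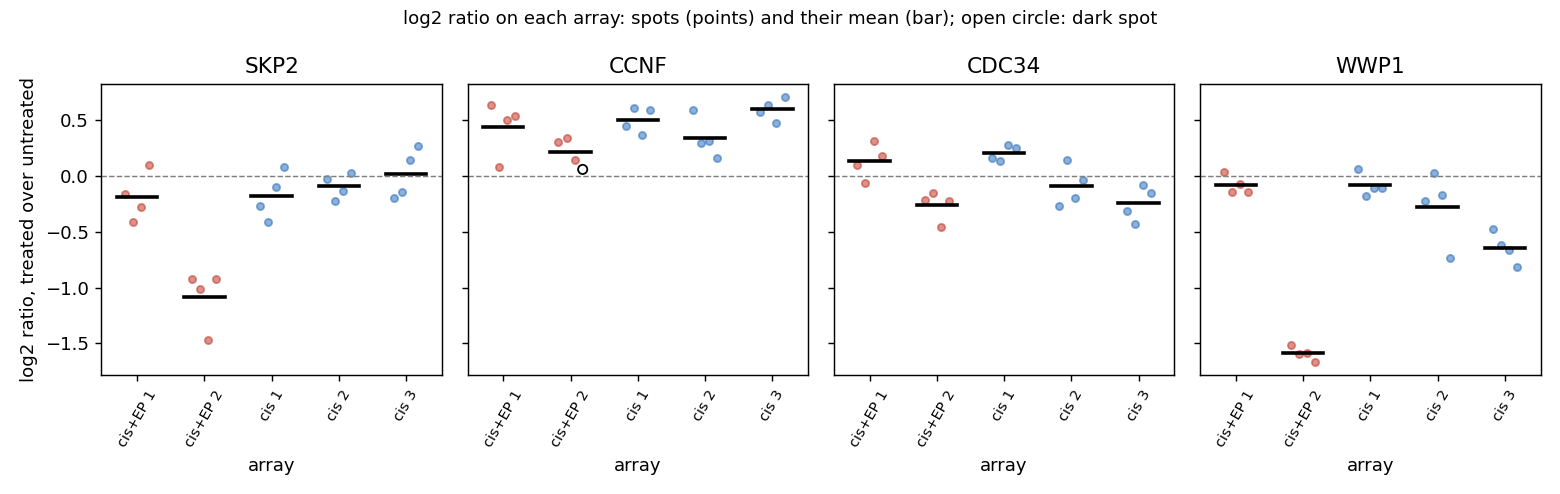
Log2 ratio of treated over untreated cells (vertical axis) for each gene on the 2 arrays of cisplatin with electroporation (cis+EP) and the 3 arrays of cisplatin alone (cis). Points are the 4 spots of the probe, bars their mean, and the open circle a dark spot. SKP2 at -1.08 and WWP1 at -1.59 on cis+EP 2 lie below their values on the other 4 arrays, while CCNF is above 0 on all.

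CCNF, the gene of cyclin F, read 0.44 and 0.21 on the electroporation arrays, against 0.50, 0.34 and 0.60 on the cisplatin arrays. All 4 of its spots were above 0 on each of the 5 arrays, and the treatments overlapped. The mean was 0.32 ± 0.16 for cisplatin with electroporation (SD, n = 2), which is 1.25-fold untreated cells, and 0.48 ± 0.13 for cisplatin alone (SD, n = 3), which is 1.39-fold. The difference of -0.16 had an SE of 0.10 from limma, and it was -0.043 with the first electroporation array alone. Of all probes 6.66% read above 0 on every array, and CCNF was the 1 probe of 3048 whose lowest ratio was at least 0.21. It ranked 8 and 114 from the top on the electroporation arrays and 11, 25 and 10 on the cisplatin arrays.

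The raw medians of CCNF were 427 in Cy5 and 441 in Cy3 on the first electroporation array, and 418.5 and 540.5 on the second. On the cisplatin arrays the Cy5 medians were 582.5, 788 and 664 and the Cy3 medians 595.5, 652 and 406. The uncorrected signal was therefore brighter in Cy5 on cisplatin arrays 2 and 3, and the positive ratio on the other 3 arrays came with the normalization. With each array's ratios centred on their median in place of loess, CCNF read 0.034 and 0.042 on the electroporation arrays and 0.053, 0.26 and 0.61 on the cisplatin arrays. The mean for cisplatin with electroporation was then 0.038, so its size rests on the loess curve, while the direction was kept. Under that centring the median of the 1461 probes above background was -0.23 for cisplatin with electroporation and -0.11 for cisplatin alone, and CCNF stood above both. On the second electroporation array 1 spot was dark, at 17 in Cy5 and 15 in Cy3, and without it the ratio there was 0.26.

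CDC34, the conjugating enzyme of SCF ligases, read 0.13 and -0.26 on the electroporation arrays, against 0.21, -0.094 and -0.24 on the cisplatin arrays. The arrays of each treatment lay on both sides of 0, and the treatments overlapped. The mean was -0.067 ± 0.28 for cisplatin with electroporation (SD, n = 2) and -0.044 ± 0.23 for cisplatin alone (SD, n = 3), and the difference was -0.023 with an SE of 0.17 from limma. The difference was smaller than its SE, which does not show that CDC34 stayed level. The spots of one array were closer together than the arrays were, with a median SD of 0.15 over the 5 arrays, while the ratios spanned 0.47.

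The CDC34 probe was very bright. Its raw medians were 25586.5 and 24441.5 in Cy5 on the electroporation arrays, against 27197 and 32956 in Cy3 on the same arrays. On the cisplatin arrays they were 34793, 34756 and 25417 in Cy5 and 37747.5, 36378 and 29299 in Cy3. With each array centred on its median in place of loess, CDC34 read -0.043 and -0.23 on the electroporation arrays and -0.026, -0.059 and -0.18 on the cisplatin arrays, below 0 on every array. The side of 0 on which the first array of each treatment fell thus depends on the loess curve. Whether any spot was saturated was not tested.

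WWP1, the HECT ligase, read -0.082 and -1.59 on the electroporation arrays, against -0.085, -0.28 and -0.64 on the cisplatin arrays. It was below 0 on each array, as were 9.42% of all probes. The lowest and the highest of its 5 values were both from cisplatin with electroporation, so the treatments overlapped. The mean was -0.84 ± 1.07 for cisplatin with electroporation (SD, n = 2) and -0.33 ± 0.28 for cisplatin alone (SD, n = 3). The difference of -0.50 had an SE of 0.45 from limma, and with the first electroporation array alone it was 0.25, in the other direction.

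The value of WWP1 on the second electroporation array did not rest on a single spot. The 4 spots ran from -1.67 to -1.51, with an SD of 0.063, the smallest among the arrays for this gene. The offset of 50 in the background correction narrows the spread between spots that are dim in a channel. Their Cy5 signal lay between 65 and 83, with a median of 74 over a local background of 13, and 4 of 4 spots were above background. Their Cy3 signal lay between 443 and 521, with a median of 475.5. On the first electroporation array the medians were 273.5 in Cy5 and 443.5 in Cy3, so the untreated signal was alike on the 2 arrays and the treated signal was not. On the cisplatin arrays the Cy5 medians of WWP1 were 377.5, 498 and 217.5 and the Cy3 medians 588.5, 626.5 and 355.

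The ratio of WWP1 on the second electroporation array corresponds to 0.332 of the untreated signal, and that on the third cisplatin array to 0.640. The first fraction holds for the reported processing, and with plain background subtraction the log2 ratio there was lower, at -2.12. In the reported values WWP1 ranked 2 from the bottom of 3048 probes on the second electroporation array and 6 on the third cisplatin array. On the first electroporation array and the first and second cisplatin arrays it ranked 662, 637 and 77. The residual spread between arrays of the same treatment was 0.658 for WWP1, the highest of the 1461 probes above background, whose median was 0.118. SKP2 ranked 21 in this respect at 0.373, CDC34 149 at 0.247 and CCNF 549 at 0.140.

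**Figure D2:**
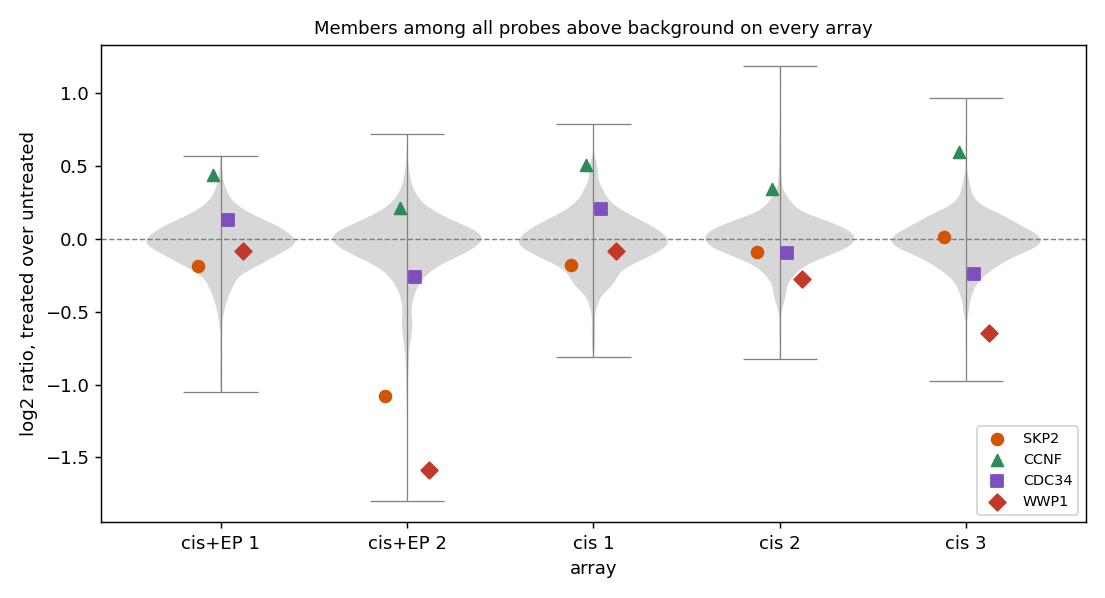
Log2 ratio of treated over untreated cells (vertical axis) on each array for the 4 genes (symbols) and for the 1461 probes above background on every array (grey shapes, whose width follows the density of probes and whose end bars mark the lowest and highest). WWP1 and SKP2 lie in the lower tail on cis+EP 2, at -1.59 and -1.08, and CCNF in the upper tail on cis 3, at 0.60.

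Each channel was also read by itself, as the log2 intensity minus the 75th percentile of that channel on that array, without loess and with the dark spot left out. For WWP1 this level ran from -2.12 to -0.23 in Cy5 and from -0.58 to -0.034 in Cy3, so the treated channel spanned 1.89 and the untreated one 0.54. The untreated channel thus gave a nearly even WWP1 level, and the spread of the ratio came with the treated channel. The lowest treated levels were -2.12 on the second electroporation array and -0.92 on the third cisplatin array.

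For SKP2 both channels varied. The treated level was 0.36 and -0.68 on the electroporation arrays and 1.08, 1.21 and -0.18 on the cisplatin arrays. The untreated level was 0.50 and 0.33 on the electroporation arrays and 1.17, 1.21 and -0.21 on the cisplatin arrays, a span of 1.43 in the untreated channel. The channels of one array lay close together on the other 4 arrays and apart on the second electroporation array. The SKP2 signal of the untreated channel thus differed more between arrays than its ratio did on the cisplatin arrays. On those arrays both channels rose and fell together. Whether the untreated cells or the spots and hybridization differed between arrays was not tested.

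For CCNF the treated level was 0.049 and -0.024 on the electroporation arrays and 0.28, 0.38 and 0.48 on the cisplatin arrays. The untreated level was -0.43 and -0.36 on the electroporation arrays and -0.30, -0.042 and -0.13 on the cisplatin arrays. On this scale the treated channel was above the untreated one on each of the 5 arrays. For CDC34 the levels spanned 0.46 in Cy5 and 0.50 in Cy3.

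**Figure D3:**
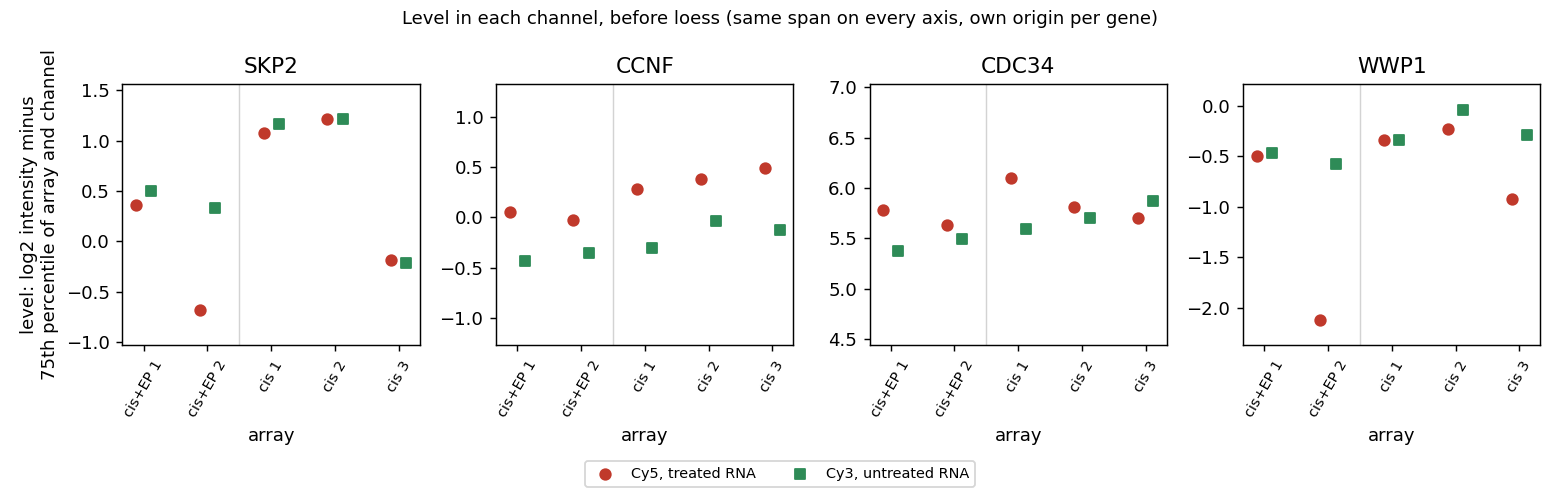
Level of each gene in the treated channel (Cy5, circles) and the untreated channel (Cy3, squares), as log2 intensity minus the 75th percentile of the channel on that array (vertical axis; every panel spans the same range from its own origin), for the arrays of cisplatin with electroporation (cis+EP) and cisplatin alone (cis). For WWP1 the treated level spans 1.89 and the untreated level 0.54, and for SKP2 both channels vary, by 1.89 in the treated and 1.43 in the untreated channel.

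The likeness of the 4 patterns was measured as the root mean square distance between their 5 ratios, where 0 means the same ratio on every array. SKP2 and WWP1 were the closest pair at 0.386, and CCNF and WWP1 the farthest apart at 1.07. SKP2 and CDC34 were 0.443 apart, CCNF and CDC34 0.511, CDC34 and WWP1 0.645, and SKP2 and CCNF 0.781. Over these arrays the F-box proteins SKP2 and CCNF were therefore less alike than the F-box protein SKP2 and the HECT ligase WWP1. Both SKP2 and WWP1 were lowest on the second electroporation array. On the third cisplatin array they lay apart, at 0.016 and -0.64, with CDC34 between them at -0.24. The distances were not computed without the second electroporation array, so the order of the pairs is given only with it included.

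Among 1245 named probes above background, those nearest to SKP2 were RPL38, a ribosomal protein, at 0.119, TIMP2, an inhibitor of matrix proteases, at 0.137, and the kinase TESK1 at 0.146. RPL38 read -0.16 and -0.85 on the electroporation arrays and -0.24, 0.014 and 0.022 on the cisplatin arrays. Nearest to WWP1 were the receptor tyrosine kinase RET at 0.225, the MYC antagonist MXD1 at 0.273 and the ectonucleotidase ENPP1 at 0.299. RET read -0.45 and -1.80 on the electroporation arrays and -0.24, -0.41 and -0.81 on the cisplatin arrays. The 3 genes nearest to SKP2 and the 3 nearest to WWP1 read between -1.80 and -0.85 on the second electroporation array. The distance includes that array, so low values there follow from the way these genes were picked.

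Nearest to CCNF was CDC25C, the phosphatase that activates CDK1 at mitotic entry, at 0.166, followed by the integrin chain ITGA7 at 0.198 and the AP1 factor JUND at 0.200. CDC25C read 0.57 and 0.086 on the electroporation arrays and 0.54, 0.19 and 0.32 on the cisplatin arrays. Nearest to CDC34 were WNT2 at 0.0449, ALAS2 at 0.0647 and GATA6 at 0.0662. Distances are small for genes with ratios near 0, and the points share 5 arrays, so these values carry no test.

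The rest of the ubiquitin system, with known substrates and partners of the 4 proteins, was represented by 85 other genes, of which 48 were above background in at least 1 channel on every array. The limma test called 0 of the 85 in either comparison with untreated cells, against the 0% of all probes. An unadjusted p under 0.05 was reached by 4 higher and 3 lower after cisplatin with electroporation, or 8.24%, against 9.97% of all probes. After cisplatin alone it was reached by 7 higher and 6 lower, or 15.3%, against 11.1%. The median of the 85 was -0.0042 after cisplatin with electroporation and -0.0034 after cisplatin alone, beside -0.0066 and -0.0014 over all probes. With median centring in place of loess these medians were -0.084 and -0.019, beside -0.0082 and 0.0068 over all probes. Probes above background had medians of -0.23 for cisplatin with electroporation and -0.11 for cisplatin alone under that centring. The 85 genes, like all probes, include both dim probes and probes above background. Whether the 85 differ from probes of like brightness was not tested. Many of the lists hold few measured genes, and the background correction draws dim probes toward 0.

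SCF core genes and regulators were measured for 7 of 17, of which 5 were above background. Their median was 0.016 after cisplatin with electroporation and -0.044 after cisplatin alone, with 0 called in each. SKP1, the adaptor of all SCF ligases, read 0.056 and -0.12 (-0.20 without a dark spot) on the electroporation arrays and -0.034, -0.078 and -0.36 on the cisplatin arrays. CUL1, the scaffold, read -0.074 and -0.11 on the electroporation arrays and 0.0086, 0.021 and -0.053 on the cisplatin arrays. With median centring both were below 0 on every array. Probes above background then had medians of -0.23 for cisplatin with electroporation and -0.11 for cisplatin alone. On the second electroporation array SKP1 then read -0.35 and CUL1 -0.43. Neither had the low value of SKP2 there, which was -1.38 under that centring.

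CKS2, a paralog of the CKS1B cofactor through which SKP2 binds CDKN1B, read -0.30 and -0.079 on the electroporation arrays and -0.56, -0.40 and -0.18 on the cisplatin arrays. It was below 0 on each array, and its mean after cisplatin alone was -0.38 (SE 0.081, limma adjusted p = 0.256). NEDD8, the modifier that switches cullins on, read 0.19 and -0.056 on the electroporation arrays and 0.12, 0.030 and -0.079 on the cisplatin arrays. With median centring it was below 0 on every array. Its mean after cisplatin with electroporation was then -0.21, near the median of -0.23 of probes above background. COPS5, the subunit of the signalosome that takes NEDD8 off, had a mean of 0.016 (SE 0.042), or -0.052 with median centring, after cisplatin with electroporation and -0.14 (SE 0.034, limma adjusted p = 0.291) after cisplatin alone. Of 17 other F-box genes looked for, 0 were matched to a probe, and further F-box genes were not looked for. The F-box family is read here through SKP2 and CCNF only.

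Other cullins and their adaptors were measured for 7 of 15, with medians of -0.0056 after cisplatin with electroporation and -0.026 after cisplatin alone. CUL4A, the scaffold of the ligases that read DNA damage, read 0.13 and -0.10 on the electroporation arrays, against 0.16, 0.19 and 0.22 on the cisplatin arrays (mean 0.19, SE 0.049, limma adjusted p = 0.303; -0.14 on the first cisplatin array with median centring). Its spots on the second electroporation array disagreed, with an SD of 0.65. Of 19 other HECT ligases, 2 were measured, UBE3A, which was dim, and WWP2, a close paralog of WWP1, with a median of -0.088 after cisplatin with electroporation and -0.15 after cisplatin alone. WWP2 read -0.062 and -0.19 on the electroporation arrays and -0.11, -0.31 and -0.36 on the cisplatin arrays. Like WWP1 it was below 0 on each array, with means of -0.12 (SE 0.070) after cisplatin with electroporation and -0.26 (SE 0.057, limma adjusted p = 0.27) after cisplatin alone. It was far from the -1.59 of WWP1 on the second electroporation array. Whether either probe also binds the transcript of the other gene was not tested.

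Ubiquitin-conjugating enzymes other than CDC34 were measured for 6 of 26, with medians of -0.023 after cisplatin with electroporation and -0.015 after cisplatin alone. UBE2S, which extends chains for the anaphase-promoting complex, read -0.36 and 0.14 on the electroporation arrays and -0.40, -0.11 and -0.035 on the cisplatin arrays. With median centring its second electroporation array read -0.18, and so the opposite signs of the electroporation arrays depend on loess. The list for the anaphase-promoting complex also holds its activator CDC20 and checkpoint genes such as BUB1B. It was measured for 5 of 18, of which 1 was above background, with medians of 0.058 and 0.029 for the same comparisons. Other ligases were measured for 13 of 35, with medians of 0.011 after cisplatin with electroporation and 0.032 after cisplatin alone. Among them BMI1, a partner in the ligase that marks histone H2A, read 0.20 and 0.17 on the electroporation arrays (mean 0.19, SE 0.043, limma adjusted p = 0.337), against a mean of 0.013 on the cisplatin arrays. With median centring these means were 0.036 and -0.063. On the second electroporation array BMI1 read 0.075 without the spot brightest in Cy5 and 0.27 without a dark spot.

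Ubiquitin, activating enzymes and deubiquitinases were measured for 4 of 34, with medians of -0.0046 after cisplatin with electroporation and 0.055 after cisplatin alone. The 4 were UBB, UCHL1, TNFAIP3 and USP4, with no activating enzyme among them. UBB, a gene of ubiquitin itself, read -0.22 and -0.45 (-0.61 without a dark spot) on the electroporation arrays and -0.14, -0.11 and 0.37 on the cisplatin arrays. TNFAIP3, a deubiquitinase that restrains NF-kB, was above 0 on each array but not with median centring (mean -0.094 after cisplatin with electroporation), with means of 0.15 (SE 0.037, limma adjusted p = 0.352) after cisplatin with electroporation and 0.24 (SE 0.030, limma adjusted p = 0.157) after cisplatin alone. Proteasome genes were measured for 18 of 37, with medians of -0.050 and -0.024 for the same comparisons. PSMB7, a catalytic subunit, read -0.46 and -0.23 on the electroporation arrays and -0.066, -0.67 and -0.042 on the cisplatin arrays, where the second array carried the mean of -0.26. PSMD12, a subunit of the lid, read 0.00080 and 0.34 on the electroporation arrays and 0.27, 0.21 and 0.31 on the cisplatin arrays (mean 0.26, limma adjusted p = 0.297). The second electroporation array carried its mean of 0.17, which was -0.14 with median centring.

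**Figure D4:**
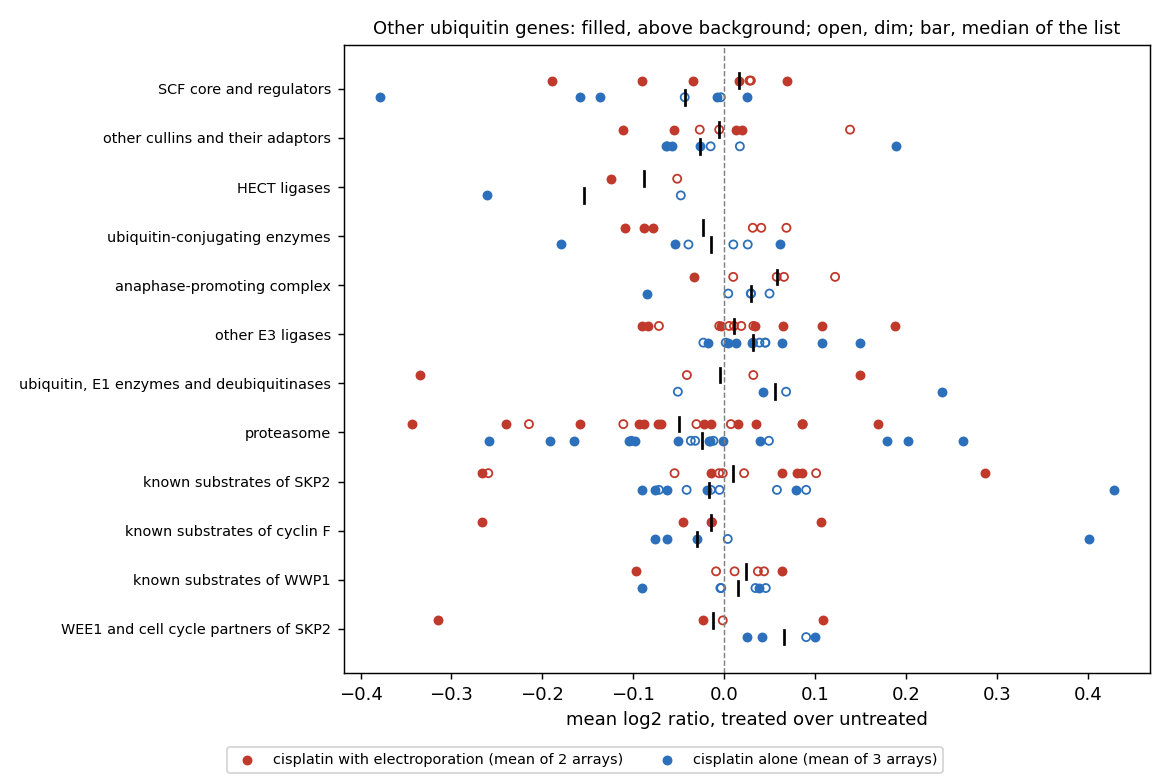
Mean log2 ratio of treated over untreated cells (horizontal axis) for the other genes of the ubiquitin system and for known substrates and partners, by list (rows). The upper points of each row are cisplatin with electroporation and the lower points cisplatin alone, filled where the probe was above background on every array and open where it was dim, and bars are medians. All list medians lie between -0.15 and 0.066, and 0 of the 85 genes passed the limma test.

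Known substrates of SKP2 were measured for 12 of 16, with medians of 0.010 after cisplatin with electroporation and -0.017 after cisplatin alone. CDKN1B, the best known of them, read 0.0097 and 0.12 on the electroporation arrays and -0.15, 0.019 and -0.14 on the cisplatin arrays. With median centring, under which most probes above background had means below 0, it was below 0 on every array, at -0.060 and -0.044 on the electroporation arrays. On the second of these 1 spot read 987 in Cy5 where the median was 49.5, and without it the ratio was 0.18. These are transcript ratios, and SKP2 acts on the protein, which was not measured. RBL2, a retinoblastoma-related protein, read 0.48 and 0.089 on the electroporation arrays and 0.45, 0.64 and 0.19 on the cisplatin arrays, with a mean of 0.43 (SE 0.11, limma adjusted p = 0.291) after cisplatin alone. It was above 0 on each array, and its probe was bright, with a Cy5 median of 41254 on the second electroporation array.

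E2F1, a factor of S-phase entry that is held to be a substrate of both SKP2 and cyclin F, read -0.21 and -0.32 on the electroporation arrays and -0.16, -0.063 and -0.0023 on the cisplatin arrays. The value on the second electroporation array rested on 1 of its 8 spots, which read 1628 in Cy5 where the median was 49.5, and without that spot the ratio there was -0.014. Known substrates of cyclin F were measured for 5 of 11, with medians of -0.015 after cisplatin with electroporation and -0.030 after cisplatin alone. Among them E2F3, a relative of E2F1, read -0.11 and 0.32 on the electroporation arrays and 0.26, 0.48 and 0.46 on the cisplatin arrays, with a mean of 0.40 (SE 0.092, limma adjusted p = 0.278) after cisplatin alone. Like CCNF it was above 0 on all cisplatin arrays, except with median centring, where the first of them read -0.16, while its electroporation arrays lay on both sides of 0.

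Known substrates of WWP1 were measured for 6 of 15, with medians of 0.024 after cisplatin with electroporation and 0.015 after cisplatin alone. EPS15, an endocytic adaptor, read 0.078 and -0.27 on the electroporation arrays and 0.055, 0.11 and -0.049 on the cisplatin arrays. The electroporation arrays lay on both sides of 0, and the mean of 0.038 after cisplatin alone was -0.13 with median centring. Of the 8 symbols listed as WEE1 and cell cycle partners of SKP2, 4 were measured, with medians of -0.012 and 0.066 for the same comparisons. These were CCNA2, CDC25A, CDK1 and CDK2, and WEE1 was not among them. CDK2, the kinase whose phosphorylation of CDKN1B lets SKP2 bind it, read -0.33 and -0.30 on the electroporation arrays, against 0.049, -0.030 and 0.056 on the cisplatin arrays. The electroporation arrays of CDK2 were close together and both lay below all cisplatin arrays, also with median centring, with means of -0.31 (SE 0.041, limma adjusted p = 0.148) and 0.025 (SE 0.033). The electroporation arrays of SKP2, in contrast, were 0.89 apart.

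The ratios of the 4 genes were set beside those of the authors' deposited table and of other ways of processing. In the authors' deposited table the second electroporation array read -1.15 for SKP2 and -1.96 for WWP1, and the first -0.17 and -0.072. CCNF read 0.51 and 0.31 in that table on the electroporation arrays and 0.56, 0.37 and 0.65 on the cisplatin arrays. CDC34 read 0.14 and -0.29 on the electroporation arrays there and 0.19, -0.11 and -0.23 on the cisplatin arrays. The low values of SKP2 and WWP1 on the second electroporation array and the positive values of CCNF thus stand in both sets of values.

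**Figure D5:**
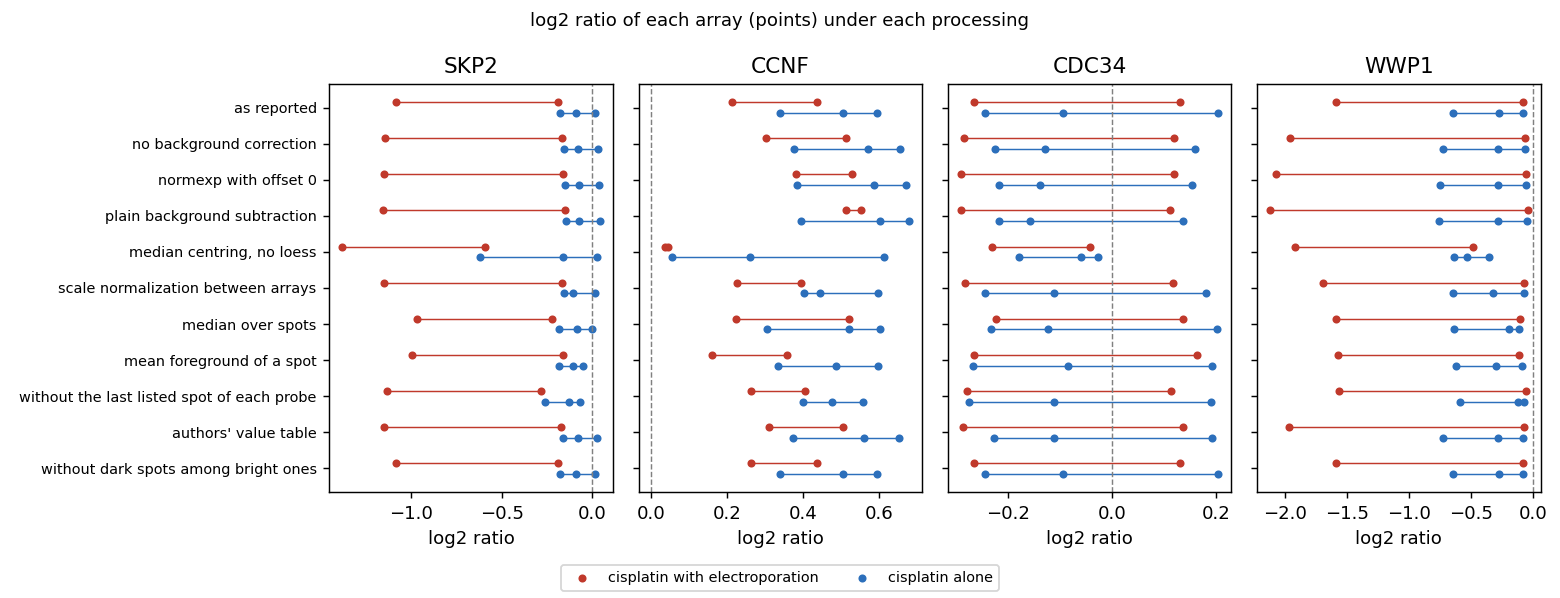
Log2 ratio of treated over untreated cells on each array (horizontal axis) for each gene under the reported processing and 10 alternatives (rows). Upper points are the 2 arrays of cisplatin with electroporation and lower points the 3 arrays of cisplatin alone, joined by a line. WWP1 and SKP2 have 1 low electroporation array in each row, and CCNF comes close to 0 with median centring (0.034 and 0.042 on the electroporation arrays).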

How the data were processed

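RNA of SK-MEL28 cells was amplified as amino allyl RNA and labelled with Cy5 (treated) or Cy3 (untreated), per the labels. The scanner files as deposited hold the raw intensity and local background intensity of 12788 spots for 3048 probes in 2 channels, not normalized, per the file headers. The second channel was read as Cy5, following the order of the labels and the authors' value table. That table, as deposited, holds normalized log2 ratios per probe, whose method the sources used here do not state. Its medians lie between -0.028 and 0.023 and it follows the second over the first channel on all 5 arrays, so direction and centring are known and its scale (slopes of 1.23 to 1.76 on the ratios here) is not. Scanner, spot flags and scan dates are not stated there either.

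Median foreground was corrected with normexp (offset 50), normalized by loess within each array (span 0.3) and averaged over spots, in limma 3.58.1 under R 4.3.3. Probes counted as above background where at least 0.5 of the spots exceeded it by 2 SDs. One limma model over 5 arrays (3 residual degrees of freedom, prior 2.47) gave SEs and two-sided p-values, adjusted by Benjamini and Hochberg over all probes at 0.05. The number of arrays limits the precision. The SE pools the spread of both treatments and for cisplatin with electroporation can be smaller than the spread of its 2 arrays.

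Genes came from the platform's gene identifiers, matched for 2192 probes to RefSeq symbols; a gene of a list with several probes was read by its brightest one. The 4 members and all lists were chosen with earlier results of these data known. List sizes count symbols, and some genes are listed under an older symbol as well. Named were the members, up to 3 genes above background with the largest mean per list and comparison (a selection is given in the text) and the 3 nearest patterns per member. UBE3A, the genes lowest on the second electroporation array and all spots left out singly were chosen after their values were seen. Alternatives changed the background correction, normalization (scaling of the named list genes too, added after the data were seen), spots, filter, values, arrays and replicate block. Probe sequences and genome positions were not used here.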

Additional observations from a re-analysis of the deposited data

How the results depend on the processing

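Without background correction 10 probes passed for cisplatin with electroporation and 4 for cisplatin. With median centring in place of loess 35 passed for the combination, all lower, with scale normalization between arrays 1, and with dim probes left out 11. In the authors' value table, with 1281 probes complete on all arrays, 8 passed for the combination and 1 for cisplatin. Spots fitted singly, with a random block for the array, which counts spots of 1 array nearly as independent (correlation 0.0871), gave 91, 132 and, for the difference between treatments, 3. Leaving out 1 array at a time gave 0 to 93 for the combination, 0 to 0 for cisplatin and 0 to 47 for the difference; 93 and 47 came without the first electroporation array, when the second stood alone and its spread was taken from the cisplatin arrays, and 1 passed for the combination without the third cisplatin array. The other settings run called 0. The cause of these shifts was not tested. Over the 1461 probes above background, the first arrays of the 2 treatments correlated with r = 0.611 and the second arrays with 0.329. The other pairs of arrays lay between 0.184 and 0.467. Whether replicate numbers mark shared cultures was not tested. A replicate block left the calls at 0 (293, 395 and 131 probes at an unadjusted p under 0.05). The gene lists had 0 called members with all probes of a gene averaged and with dim members left out.

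Over 10 alternatives, SKP2 after cisplatin with electroporation ran from -0.99 to -0.58, WWP1 from -1.20 to -0.81, CCNF from 0.038 to 0.53 and CDC34 from -0.14 to -0.043, and after cisplatin alone SKP2 ran from -0.25 to -0.058, WWP1 from -0.51 to -0.26, CCNF from 0.31 to 0.56 and CDC34 from -0.087 to -0.044. The sign of a mean against untreated cells changed in 0 of these, and the difference between treatments for CDC34 changed sign in 2. Leaving out 1 array took the difference between treatments for SKP2 to between -0.998 and -0.10 and for WWP1 to between -1.26 and 0.25, the last without the second electroporation array. Leaving out dark spots was added after the data were seen. Signal over background limits WWP1 most, at 5.58 in Cy5 on that array.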

Other observations

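On the second electroporation array, 1 spot carried the ratio of a further gene of the ubiquitin system, which was looked at after its values were seen. PSMB2, a proteasome subunit, read 0.11 and -0.59 on the electroporation arrays and 0.32, -0.063 and -0.14 on the cisplatin arrays. Its 4 spots on the second electroporation array had an SD of 1.14, and without the spot brightest in Cy5 the ratio there was -0.027. In contrast, the 4 spots of WWP1 on that array had an SD of 0.063 and those of SKP2 0.26.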
